A study of Mus musculus with 8 samples.

Results

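The cytosolic ribosomal protein genes were followed in a mouse lymphoma cell line exposed to a bromodomain inhibitor, an ATR kinase inhibitor, or both. Members were all probes whose gene symbol was Rpl or Rps followed by a number, or Rplp0, Rplp1, Rplp2 or Rpsa, and that were detected on both arrays of at least 1 group. Mitochondrial ribosomal proteins, the Rps6k kinases and pseudogene symbols were left out. This gave 76 probes for 61 genes, out of 25697 probes on the array and 11761 probes that passed the same detection filter, or 61 of 7947 genes with a filtered probe. The 61 genes comprised 32 genes of the large (60S) subunit with 42 probes, 23 genes of the small (40S) subunit with 27 probes, 5 paralog genes with 6 probes (Rpl22l1, Rps27l, Rpl3l, Rpl7l1 and Rpl36al), and Rps19bp1, which matches the naming rule but encodes a binding partner of Rps19 and no ribosomal protein.

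The cells were λ820, a murine lymphoma line driven by Myc and grown in RPMI with fetal bovine serum. Illumina bead arrays measured total RNA after 24 h in 4 groups of 2 arrays: 10 µM RVX2135 with 10 µM VE-821, 10 µM RVX2135 alone, 10 µM VE-821 alone, and the vehicle DMSO at a dilution of 1000-fold. RVX2135 blocks the bromodomains of BET proteins, which read acetylated chromatin, and VE-821 inhibits ATR, the kinase that responds to stalled replication forks. The study was a single line, the labels do not say whether the drug cultures also held DMSO, and nothing says that the 2 arrays of a group came from separate cultures. The p-values therefore compare groups with the spread of these arrays, possibly a technical one.

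Ribosomal proteins assemble with ribosomal RNA in the nucleolus into the subunits that read messenger RNA (40S) and form peptide bonds (60S). Their messages are among the most abundant in growing cells and usually begin with a C followed by a run of pyrimidines, the terminal oligopyrimidine or TOP element, through which mTORC1 sets how strongly they are translated. Myc drives transcription of many of these genes and binds the E-box CACGTG, and several ribosomal proteins have acquired paralogs that can take their place in the ribosome.

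Start sites of 53 of the 61 genes were matched in a RefSeq promoter table of build GRCm38.p6. A C followed by at least 5 bases that are C or T, counted from the first C of the run, on the transcribed strand and beginning within 30 bases of an annotated start, was present in 40 of the 53 genes (75.5%), compared with 12138 of 27025 genes in the table (44.9%). The palindrome CACGTG occurred in the window from 250 bases before to 50 bases after the start in 6 of the 53 genes (11.3%), compared with 2187 of the 27025 genes (8.09%). A match in these letters is a description of the window and not a measured binding site or start. Shown first are Rps6, the S6 kinase substrate, as an example of the usual start, and the 2 parent and paralog pairs whose arrays diverged, chosen after their values were seen. The windows run from 50 bases before to 20 bases after the start, and capitals mark each pyrimidine run that meets this rule. Rpl22 had no such run at either of its 2 annotated starts. The run in its window that begins further than 30 bases before the start was not counted or marked.
Rps6 (chr4:86857348-86857417, minus strand): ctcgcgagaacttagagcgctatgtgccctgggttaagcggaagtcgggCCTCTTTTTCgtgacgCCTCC
Rps27 (chr3:90213629-90213698, minus strand): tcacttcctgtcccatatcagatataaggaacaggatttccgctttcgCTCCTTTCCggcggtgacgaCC
Rps27l (chr9:66946036-66946105, plus strand): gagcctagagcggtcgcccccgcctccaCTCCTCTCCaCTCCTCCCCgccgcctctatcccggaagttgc
Rpl22l1 (chr3:28805458-28805527, plus strand): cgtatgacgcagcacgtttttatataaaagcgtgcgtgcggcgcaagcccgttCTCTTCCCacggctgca
Rpl22 (chr4:152325676-152325745, plus strand): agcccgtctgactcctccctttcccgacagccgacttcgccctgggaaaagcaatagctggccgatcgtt
A run began 1 base before the annotated start in Rps6, 2 bases before it in Rps27 and 3 bases after it in Rpl22l1, and Rps27l had runs beginning 22 and 12 bases before it. Second runs that began 15 bases after the start in Rps6 and 18 bases after it in Rps27 continue past the end of the window.

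The E-box is shown in capitals for Rpl13a, Rpl19 and Rpl23, as examples at different distances from the start, chosen after their values were seen; the other genes that held it were Rpl14, Rpl34 and Rps19.
Rpl13a (chr7:45128923-45128962, minus strand): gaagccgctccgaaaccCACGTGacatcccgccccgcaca
Rpl19 (chr11:98026674-98026713, plus strand): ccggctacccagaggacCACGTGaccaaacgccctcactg
Rpl23 (chr11:97782420-97782459, minus strand): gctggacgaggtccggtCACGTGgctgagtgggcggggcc
The palindrome lay 200 bases before the start in Rpl13a, 19 bases before it in Rpl19 and 3 bases before it in Rpl23.

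Each array detected 11012 to 11478 probes, and replicate arrays correlated across members at 0.998 to 0.999. Of the B-lineage markers, Cd79a, Cd79b and Ebf1 were detected on all 8 arrays, whereas Ms4a1 and Pax5 were detected on 0. All 4 probes of the detected markers fell in each comparison with DMSO, by a median log2 change of -2.93 with both drugs, -0.97 with RVX2135 and -1.07 with VE-821. Markers of myeloid cells, of red cells and platelets, and of stroma or endothelium had 0 probes past the detection filter, and of 6 T and NK markers only Cd3d (3 arrays) and Cd3g (2 arrays) passed it. Summed over the probes of all 6 T and NK markers, 4 of which did not pass the filter, log2 levels were 26.0 to 26.1 with both drugs, 26.3 to 26.5 with RVX2135, 26.4 with VE-821 and 26.8 to 27.2 with DMSO. The part of any of these markers in the results below was not tested. In bulk RNA, fewer cells of a type and less RNA per cell cannot be told apart.

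The members were among the brightest probes on the array. On each array 52 or 53 of the 76 lay in the top 5% of the filtered probes, and of the 80 filtered probes with a mean log2 intensity of 13 or more, 40 were members, from 37 genes. Median member intensity, on the deposited linear scale, was 8705 to 9501 per array, whereas the median over all filtered probes was 76.0 to 117.6. The brightest members were Rpl9, Rps2 and Rplp1, at ranks 3, 5 and 6 of the 11761 filtered probes. The dimmest were probes of Rpsa, Rpl3l and Rpl23, at ranks 10206, 10106 and 10046. Brightness here ranks probes, not transcripts, because a probe's level also depends on its sequence.

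Summed over the 76 probes, the deposited intensity was 641281 and 587189 with both drugs, 597910 and 608877 with RVX2135, 605060 and 614413 with VE-821, and 589212 and 590973 with DMSO. The sums with both drugs lay on either side of the DMSO pair, and those of the single drugs lay above it. As a share of the intensity of all filtered probes, the members made up 12.6% and 12.9% with both drugs, 11.8% and 12.4% with RVX2135, 11.7% and 11.6% with VE-821, and 9.92% and 11.2% with DMSO. Every drug array had a larger member share than either DMSO array, and the 2 DMSO arrays differed from each other by more than any other pair of replicates.

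After background correction and quantile normalization, most ribosomal protein probes were not called changed by any drug, at an adjusted p under 0.05 in limma with Benjamini-Hochberg adjustment over the 11761 probes. With both drugs, 14 member probes rose, 6 fell and 56 were not called against DMSO (26.3% called), whereas 58.5% of all filtered probes were called, 28.6% higher and 29.9% lower. With RVX2135, 9 rose, 3 fell and 64 were not called (15.8%), against 28.1% of all filtered probes, 14.0% higher and 14.2% lower. With VE-821, 10 rose, 0 fell and 66 were not called (13.2%), against 21.2% of all filtered probes, of which 10.4% rose and 10.8% fell. At an unadjusted p under 0.05 the VE-821 comparison had 18 member probes.

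The 3 comparisons share the DMSO arrays. Across them, 50 of the 76 probes were called in none, 26 in at least 1, and 4 in all 3. Of these 4, Rpl13a, the dimmer probe of Rpl31 and the brighter probe of Rplp0 rose each time, and Rpl3l was called in opposite directions. The log2 change stayed under 0.25 in size in all 3 comparisons for 48 probes, and only Rpl3l and Rpl22l1 reached a 2-fold change in any. For these counts across the 3 comparisons no share over all filtered probes is given here, so they describe the members only. The median member change was 0.04 with both drugs, 0.09 with RVX2135 and 0.10 with VE-821, beside -0.01, 0.00 and -0.02 over all filtered probes.

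**Figure D1:**
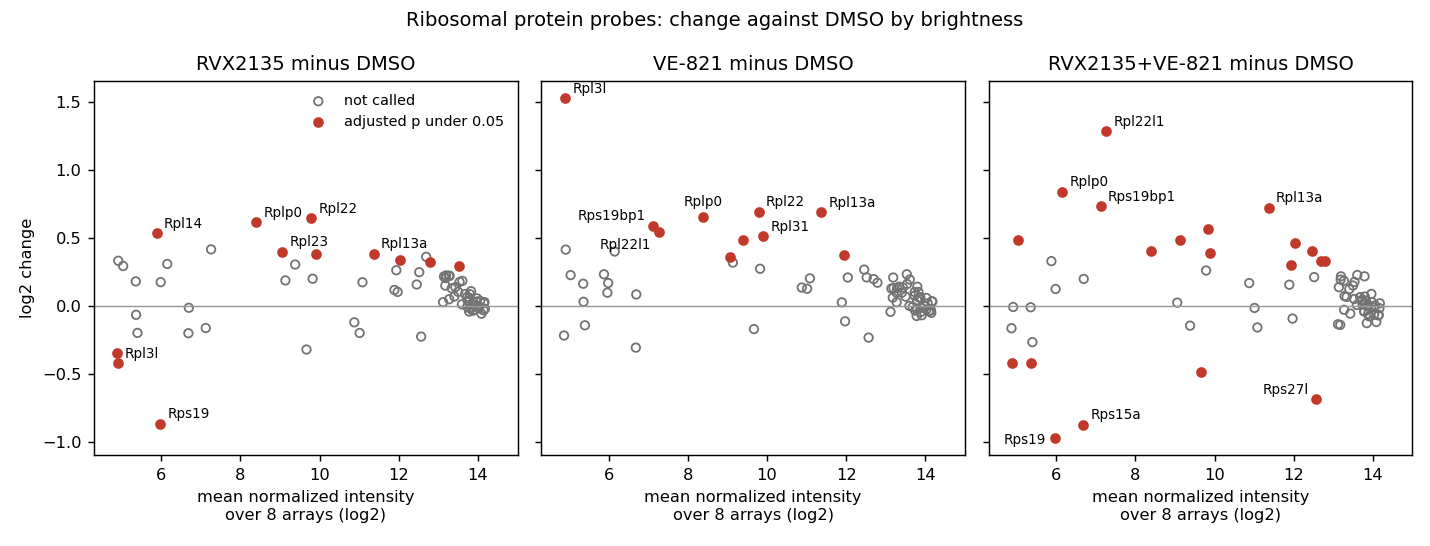
Log2 change of each member probe against DMSO (vertical axis) by its mean log2 intensity over the 8 arrays (horizontal axis), in a panel each for RVX2135, VE-821 and the combination; filled points passed the limma test at an adjusted p under 0.05 and open points did not. The 40 brightest members lie close to 0 in all 3 panels, and the called members lie mainly to the left of them.

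Called members were mostly those below the brightest range. Of the 40 members with a mean log2 intensity of 13 or more, 0 were called with both drugs, 1 with RVX2135 (Rps9) and 0 with VE-821, whereas of the 40 other probes as bright, 13, 6 and 4 were called. Of the 13 members between 10 and 13, 7 were called with both drugs, 3 with RVX2135 and 2 with VE-821, and of the other probes in this range 58.6%, 26.1% and 19.2% were. Of the 23 members under 10, 13 were called with both drugs, 8 with RVX2135 and 8 with VE-821, beside 58.8%, 28.5% and 21.5% of the other probes. With both drugs the members under 13 were thus called about as often as other probes of their brightness. Rps6 had 13.58 and 13.56 (log2 intensity) with both drugs, 13.49 and 13.56 with RVX2135, 13.49 and 13.49 with VE-821, and 13.47 and 13.37 with DMSO. Its change with both drugs was 0.15 (95% interval -0.07 to 0.37, limma adjusted p = 0.223).

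How many of the bright members were called with both drugs, and the size of the family's median change, depended on the normalization; the median was above 0 and higher calls outnumbered lower ones under all 5. Quantile normalization gives every array the same distribution, including the brightest probes of which members made up 40 of 80. Median scaling, which moves each array by a constant only, called 44 member probes higher and 4 lower with both drugs, at a median member change of 0.37 beside 0.08 over all filtered probes. Cyclic loess called 39 higher and 6 lower, at a median of 0.28. The authors' own normalized values gave 16 higher and 6 lower, and quantile normalization without background correction gave 13 and 6. Of all filtered probes, 59.3% were called under median scaling, 58.3% under cyclic loess, 57.5% under the authors' values and 57.8% under the last setting.

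The added calls were bright members. Of the 40 with a mean log2 intensity of 13 or more, 29 were called higher under median scaling and 24 under cyclic loess, 0 lower under either, and 2 higher under the authors' values. Rps6 then stood at 0.48 (adjusted p = 0.00353) under median scaling and 0.39 (adjusted p = 0.00583) under cyclic loess. Rpl5 stood at 0.38 (adjusted p = 0.0127) and 0.28 (adjusted p = 0.0427). With a single drug these settings changed the calls less. RVX2135 gave 11 higher and 1 lower under median scaling and 9 and 3 under cyclic loess. VE-821 gave 9 higher and 11 higher, with 0 lower in both. Of all filtered probes, 28.6% and 28.7% were called with RVX2135, and 21.6% and 22.5% with VE-821. Which of the normalizations is nearer the amounts in the cells was not tested. The calls against DMSO described next kept their direction under all 4 other normalizations, and those that missed the threshold under any of them are named with the gene.

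**Figure D2:**
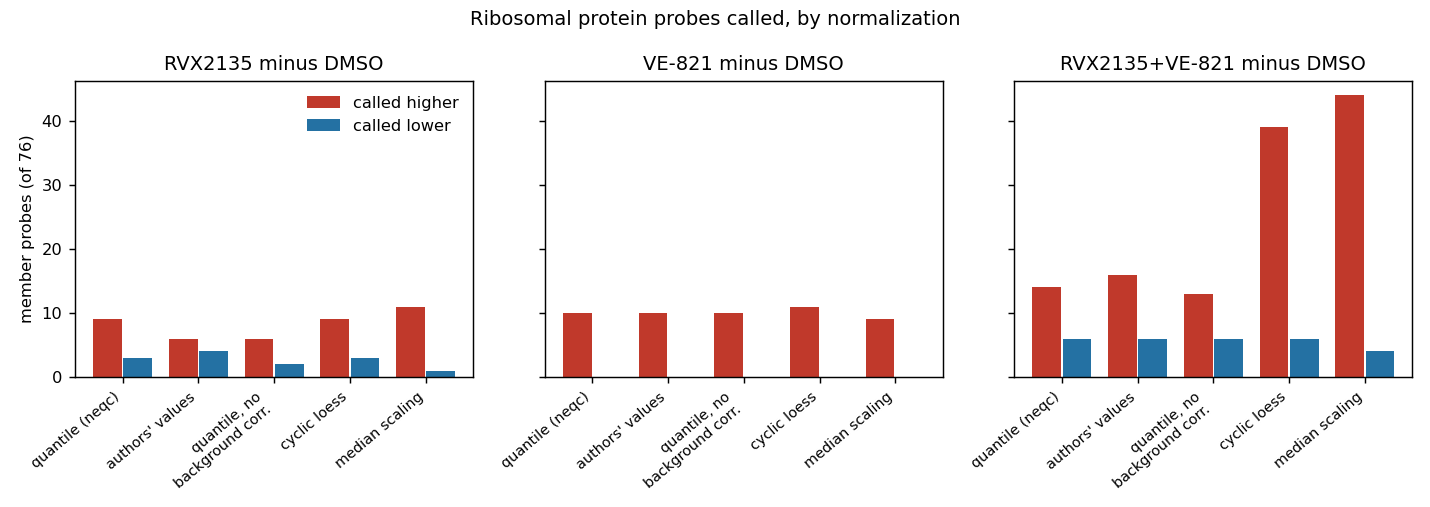
Number of member probes called higher (red bars) and lower (blue bars) against DMSO under each of 5 normalizations, for RVX2135, VE-821 and the combination, out of 76 probes. The combination has 14 higher and 6 lower calls in the setting used here, 44 and 4 under median scaling, and 39 and 6 under cyclic loess. In the same order, 58.5%, 59.3% and 58.3% of all filtered probes were called.

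Among large-subunit proteins, Rplp0 forms the base of the stalk that recruits elongation factors. Its brighter probe had 8.16 and 8.60 with both drugs, 8.46 and 8.73 with RVX2135, 8.55 and 8.71 with VE-821, and 7.90 and 8.05 with DMSO. All 6 drug arrays were above both DMSO arrays. It rose by 0.40 with both drugs (adjusted p = 0.0396), 0.62 with RVX2135 (0.0112) and 0.65 with VE-821 (0.011). The combination call was lost under the authors' values and under quantile normalization without background correction. The dimmer Rplp0 probe rose with both drugs by 0.84 (SE 0.17, adjusted p = 0.0012), and its single-drug changes of 0.31 with RVX2135 (0.203) and 0.40 with VE-821 (0.121) were not called. Rplp1, the stalk protein that binds to Rplp0, stayed between 14.09 and 14.21 on all 8 arrays, with changes of -0.07, 0.02 and -0.05. The Rplp2 probe was detected on 0 arrays and is not a member.

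Rpl13a, known in human cells for its release from the ribosome to silence inflammatory messages, had 11.64 and 11.65 with both drugs, 11.22 and 11.39 with RVX2135, 11.64 and 11.58 with VE-821, and 10.86 and 10.98 with DMSO. The groups did not overlap with DMSO in any comparison, and RVX2135 lay between DMSO and the other drug groups. The rise was 0.72 with both drugs (SE 0.11, adjusted p = 0.000126), 0.38 with RVX2135 (0.0203) and 0.69 with VE-821 (0.000961).

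Rpl31 and Rpl19 sit near the exit of the peptide tunnel, together with Rpl22, Rpl23a and other proteins on the fixed list. Of the 6 filtered probes of 5 such genes, 2 rose with both drugs, 2 with RVX2135 and 3 with VE-821, and 0 fell, beside 28.6%, 14.0% and 10.4% of all filtered probes that rose. The dimmer Rpl31 probe had 9.77 and 10.17 with both drugs, 9.95 and 9.96 with RVX2135, 10.07 and 10.10 with VE-821, and 9.63 and 9.52 with DMSO. This probe rose by 0.39 with both drugs, 0.38 with RVX2135 and 0.51 with VE-821. Its RVX2135 call (adjusted p = 0.0498) was lost under all 4 other normalizations. The brighter Rpl31 probe was not called, at means of 13.72 with both drugs, 13.75 with RVX2135, 13.76 with VE-821 and 13.68 with DMSO. With both drugs it was called higher under median scaling (0.40, adjusted p = 0.0198) and cyclic loess (0.29, adjusted p = 0.0325). Rpl19 rose by 0.30 with both drugs (adjusted p = 0.0275) and by 0.38 with VE-821 (0.0269), the second of which was lost under median scaling.

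Rpl7a rose by 0.46 with both drugs (adjusted p = 0.00467) and 0.34 with RVX2135 (0.0469), and the second call was lost under quantile normalization without background correction. Rpl24, which bridges the subunits, rose by 0.33 with both drugs (0.0165) and 0.32 with RVX2135 (0.0397). Rpl36a rose with both drugs by 0.33 (0.0406). Rpl14, read by a dim probe at rank 7624 of the filtered probes, rose with RVX2135 by 0.53 (0.0355), a call lost under the authors' values. The brighter Rpl27a probe rose with VE-821 by 0.48 (0.0293), a call lost under median scaling. Large-subunit falls with both drugs were those of the dimmer Rpl38 probe, by -0.49 (0.00592), and of a dim probe of Rpl27a, by -0.42 (0.0316). The second of these was lost under median scaling. The brighter Rpl38 probe did not fall, with 13.99 and 14.00 with both drugs and 14.03 and 13.99 with DMSO. It was called higher under median scaling (0.34, adjusted p = 0.0226).

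Rpl5 binds 5S ribosomal RNA and, with Rpl11, restrains Mdm2 when ribosome assembly fails. It had 13.82 and 13.67 with both drugs, 13.79 and 13.76 with RVX2135, 13.64 and 13.77 with VE-821, and 13.74 and 13.74 with DMSO. These values overlapped in all groups, and the change with both drugs was 0.01 (95% interval -0.22 to 0.24) outside the 2 normalizations given above. Rpl11 had no probe among those analysed here.

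Of the 27 small-subunit probes, 3 rose and 2 fell with both drugs, 1 rose and 2 fell with RVX2135, and 0 were called with VE-821 in limma, where 4 passed an unadjusted p under 0.05. Of the 42 large-subunit probes, 8 rose and 2 fell, 8 rose and 0 fell, and 7 rose and 0 fell in the same comparisons. Of all filtered probes, 28.6% rose and 29.9% fell with both drugs, 14.0% and 14.2% with RVX2135, and 10.4% and 10.8% with VE-821. The difference between the subunits was not tested. Rps15a showed the clearest fall among the small-subunit probes. Its probe had 6.05 and 6.26 with both drugs, 6.88 and 6.78 with RVX2135, 6.68 and 6.77 with VE-821, and 7.06 and 7.00 with DMSO. The combination lay below every other array, and the fall was -0.87 (SE 0.11, adjusted p = 3.96e-05). With both drugs the dimmer Rps24 probe rose by 0.48 (0.00379) and Rps15 by 0.40 (0.00941). The brighter Rps24 probe, at a mean of 13.45 with both drugs and 13.33 with DMSO, was not called. It was called higher under median scaling (0.49, adjusted p = 0.00695) and cyclic loess (0.40, adjusted p = 0.00796). Rps23, which lines the decoding centre, rose with both drugs by 0.48 (0.0124). Its probe lay near background, at 5.16 and 5.38 with both drugs and 4.66 and 4.91 with DMSO, detected on 1 DMSO array. The brighter of 2 Rps9 probes rose with RVX2135 by 0.29 (0.049), and this call was lost under the authors' values and under quantile normalization without background correction. The dim Rpsa probe, for the laminin receptor protein of the small subunit, fell with RVX2135 by -0.35 (0.0453), a call lost under median scaling and under quantile normalization without background correction.

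Rps19 is the gene most often mutated in Diamond-Blackfan anaemia, and its 2 probes differed. The dim probe had 5.66 and 5.20 with both drugs, 5.47 and 5.60 with RVX2135, 6.62 and 6.37 with VE-821, and 6.26 and 6.54 with DMSO. The 4 arrays with RVX2135 were all below the 4 without it. It fell by -0.97 with both drugs (SE 0.16, adjusted p = 0.000267) and by -0.86 with RVX2135 (0.00222), and its change with VE-821 was 0.10 (0.714). The bright probe had 13.91 to 14.03 on all 8 arrays and a change of 0.09 with both drugs (95% interval -0.13 to 0.30), but was called higher under median scaling (0.46, adjusted p = 0.00354) and cyclic loess (0.35, adjusted p = 0.0104). The fall was not seen on the bright probe under any of these 3 normalizations. Over the 14 probes of 11 Diamond-Blackfan genes, 2 rose and 1 fell with both drugs, 1 rose and 1 fell with RVX2135, and 1 rose and 0 fell with VE-821, beside 58.5%, 28.1% and 21.2% of all filtered probes called in either direction.

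**Figure D3:**
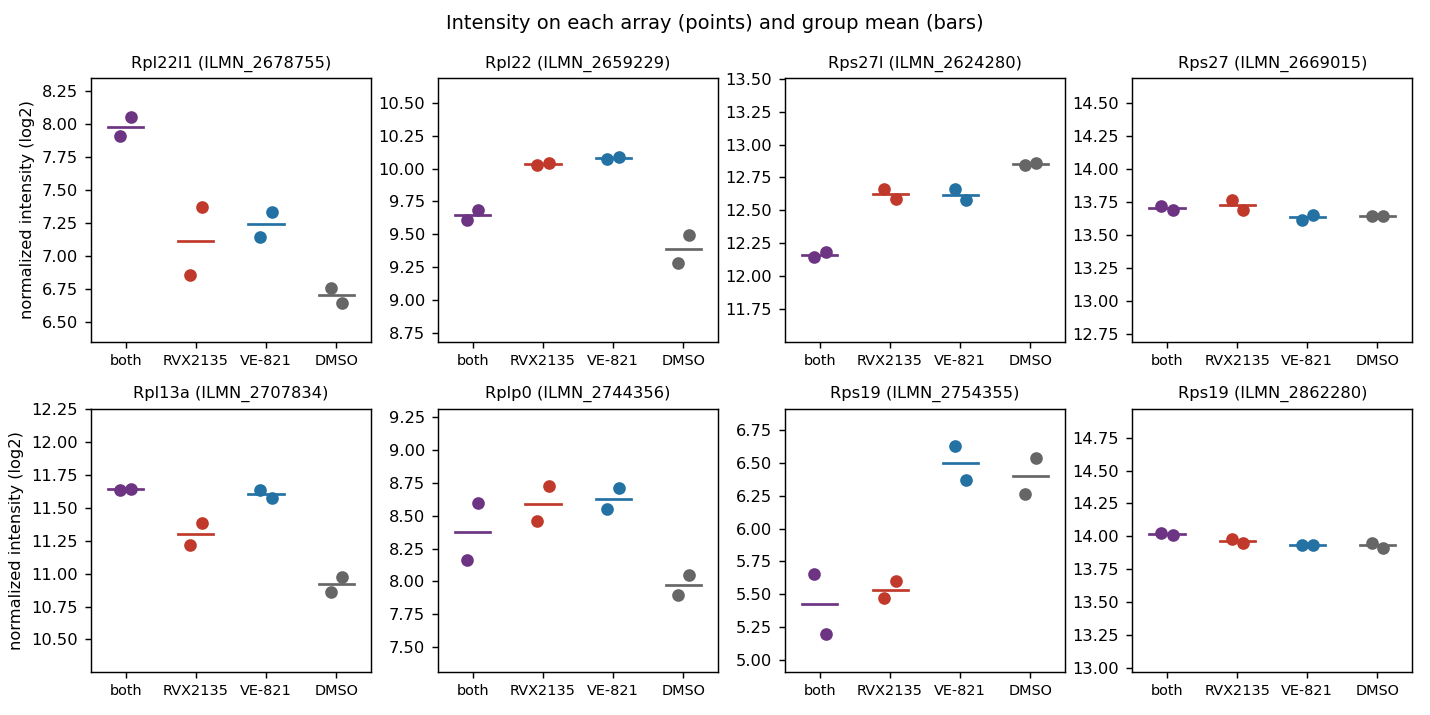
Log2 intensity on each of the 8 arrays for single member probes, with the groups from left to right both drugs, RVX2135, VE-821 and DMSO; every panel spans the same number of log2 units, and the short lines are group means. Rpl22l1 is highest and Rps27l lowest with both drugs, and Rpl22 is highest with either drug alone.

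The largest change with both drugs was that of a paralog, Rpl22l1. Its parent is Rpl22, and in mice Rpl22 is known to hold down Rpl22l1 by binding its message. Rpl22l1 had 7.91 and 8.05 with both drugs, 6.86 and 7.37 with RVX2135, 7.15 and 7.33 with VE-821, and 6.76 and 6.64 with DMSO. Both combination arrays were above all 6 others, and every single-drug array was above both DMSO arrays. The rise with both drugs was 1.28 on the log2 scale, a 2.43-fold change (SE 0.16, adjusted p = 2.62e-05), and held under all 15 alternatives. With VE-821 it rose by 0.54 (adjusted p = 0.0297), which was lost when any 1 of the 4 arrays compared was left out (adjusted p up to 0.181), and with RVX2135 the change was 0.42 (0.0681).

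Rpl22 followed another order. It had 9.61 and 9.69 with both drugs, 10.03 and 10.04 with RVX2135, 10.07 and 10.09 with VE-821, and 9.28 and 9.50 with DMSO. The 4 single-drug arrays were the highest, the combination arrays stood between them and DMSO, and no 2 of these 3 sets overlapped. Rpl22 rose by 0.65 with RVX2135 (SE 0.11, adjusted p = 0.00129) and by 0.69 with VE-821 (0.001), whereas its change with both drugs was 0.26 (0.0588).

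Rps27l, a p53 target in human cells and the paralog of Rps27, had 12.14 and 12.18 with both drugs, 12.66 and 12.59 with RVX2135, 12.66 and 12.57 with VE-821, and 12.84 and 12.86 with DMSO. Both combination arrays were below all 6 others, and the single-drug arrays were below both DMSO arrays. It fell with both drugs by -0.69 (SE 0.10, adjusted p = 0.000114), and its single-drug changes of -0.23 with RVX2135 (0.119) and -0.23 with VE-821 (0.127) were not called. Its parent Rps27 lay between 13.61 and 13.77 on all 8 arrays, with a change of 0.06 with both drugs (95% interval -0.16 to 0.28), and was called higher with both drugs under median scaling (0.43, adjusted p = 0.0064) and cyclic loess (0.33, adjusted p = 0.0144).

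Rpl3l is a form of Rpl3 made mainly in muscle. Its probe passed the detection filter through the VE-821 arrays only, so a difference there was bound to appear. It had 4.27 and 4.34 with both drugs, 4.34 and 4.27 with RVX2135, 6.23 and 6.27 with VE-821, and 4.65 and 4.80 with DMSO. With both drugs and with RVX2135 it was not well above background on any array, and with DMSO it was detected on 1 array of 2. VE-821 stood 1.53 above DMSO on the log2 scale, and at least 2.97-fold above the combination, taking the lowest detected signal as the level of the dim group. Its values below DMSO with both drugs and with RVX2135 were called lower, and both calls were lost under median scaling (adjusted p = 0.362 with both drugs and 0.17 with RVX2135). Rpl3 itself changed by -0.04 with both drugs (0.741), a value that turned to 0.35 (adjusted p = 0.0173) under median scaling.

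The remaining pairs had smaller changes. One probe of Rpl7l1, which takes part in making the large subunit, rose with both drugs by 0.57 (adjusted p = 0.00132), and its other probe was not called in any comparison with DMSO. Rpl36al changed by -0.14 with both drugs (0.266), beside the rise of its parent Rpl36a given above. Rpl10, Rps4x and Rpl39, whose paralogs had no filtered probe, changed by 0.03, 0.04 and -0.06 with both drugs, none of them called. Under median scaling all of them were called higher, Rpl10 at 0.39 (adjusted p = 0.0141), Rps4x at 0.42 (0.0102) and Rpl39 at 0.34 (0.0299), and under cyclic loess Rpl10 at 0.28 (0.0312) and Rps4x at 0.32 (0.0233). Rps19bp1, which encodes no ribosomal protein, had 7.74 and 7.39 with both drugs, 6.57 and 6.77 with RVX2135, 7.37 and 7.48 with VE-821, and 6.89 and 6.78 with DMSO. It rose by 0.73 with both drugs (0.000549) and by 0.59 with VE-821 (0.00889), and its change with RVX2135 was -0.16 (0.393).

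Several of the single-drug calls missed the threshold when 1 array was left out. Leaving out an array also lowered the share of all filtered probes called in every comparison with DMSO. The loss of calls was thus not particular to the members. The 12 calls with RVX2135 became 2 without its replicate 2, 3 without DMSO replicate 1, 6 without DMSO replicate 2 and 9 without its replicate 1. The 10 calls with VE-821 became 5 without its replicate 1, 3 without its replicate 2, and 4 without either DMSO array. The 20 calls with both drugs became 13 without DMSO replicate 1 and 14 to 19 without any other array. The rises of Rpl22 with either drug, of Rpl13a with VE-821 or both, of Rpl22l1 with both, and the falls of Rps27l, Rps15a and dim Rps19 with both were called under every such omission. So were the rises of Rpl7a, Rpl7l1, Rps24, Rps19bp1 and the dim Rplp0 probe and the fall of the dimmer Rpl38 probe with both drugs. The fall of dim Rps19 with RVX2135 was also called under every such omission. The other calls named above, leaving aside Rpl3l with VE-821, missed the threshold without at least 1 array: with both drugs these were the brighter Rplp0 probe (adjusted p up to 0.339), Rpl36a (0.305), Rpl31 (0.234), Rpl27a (0.19), Rpl19 (0.159), Rps23 (0.109), Rps15 (0.087), Rpl24 (0.0826) and Rpl3l.

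The combination was next set against each single drug. Against RVX2135 alone, 5 member probes rose, 7 fell and 64 were not called (15.8%), whereas 49.1% of all filtered probes were called, 24.1% higher and 25.1% lower. Rises were those of Rps19bp1 (0.89), Rpl22l1 (0.87, adjusted p = 0.000754), the dim Rplp0 probe (0.53), Rpl7l1 (0.37) and Rpl13a (0.34). The 5 largest falls were those of Rps15a (-0.67, adjusted p = 0.00045), Rps27l (-0.46), the brighter Rpl27a probe (-0.45), Rpl22 (-0.39) and 1 of 4 Rpl23 probes (-0.38). Rpl23 forms a bridge to the small subunit and, like Rpl5, can bind Mdm2. Of these, the dim Rplp0 probe, Rpl7l1, Rpl13a, Rpl27a and Rpl22 missed the threshold without at least 1 array (adjusted p up to 0.218).

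Against VE-821 alone, 1 member probe rose, 9 fell and 66 were not called (13.2%), whereas 48.7% of all filtered probes were called, 24.5% higher and 24.3% lower. The rise was Rpl22l1, by 0.74 (adjusted p = 0.00218). Rpl3l is covered by the bound given above, and the next falls were those of the dim Rps19 probe (-1.07, adjusted p = 0.000212), the brighter Rpl27a probe (-0.63, 0.00295), Rps15a (-0.57, 0.00148) and Rps27l (-0.45, 0.00311). The direction of the members' median turned with the normalization in both comparisons. It was -0.03 against RVX2135 and -0.02 against VE-821, but 0.12 and 0.22 under median scaling and 0.12 and 0.12 under cyclic loess. The split of calls against VE-821 was then 12 higher and 7 lower under median scaling and 8 and 10 under cyclic loess. Against RVX2135 it was 7 and 6, and 10 and 6. Of all filtered probes, 47.5% and 47.3% were called against VE-821, and 46.9% and 47.8% against RVX2135.

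The sum of the single-drug log2 effects was then set against the effect of both drugs, as an interaction term. In 8 member probes the combination fell short of the sum, in 0 it exceeded it, and 68 were not called (10.5% called), whereas 25.4% of all filtered probes were called, 12.1% higher and 13.3% lower. One of the 8 was Rpl3l, which entered through the VE-821 arrays and for which the filter fixed this outcome. Over all 76 probes, 58 were below 0, at a median of -0.08 beside 0.01 over all filtered probes. This member median was -0.01 under both median scaling and cyclic loess. The number below 0 under those settings, and the share of all filtered probes below 0, are not given here. The single-drug effects share their DMSO arrays, so an error in these arrays enters the sum more than once.

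Rpl22 fell furthest short among probes detected on all arrays. Its single-drug rises of 0.65 and 0.69 would add to more than the 0.26 seen with both drugs, and the interaction was -1.08 (SE 0.15, adjusted p = 0.00064). The brighter Rpl27a probe had 8.92 and 9.24 with both drugs, 9.40 and 9.66 with RVX2135, 9.80 and 9.61 with VE-821, and 9.17 and 9.27 with DMSO. The single-drug arrays were all above the DMSO arrays, and the combination arrays overlapped with DMSO. Its interaction was -0.93 (0.00581). The brighter Rplp0 probe followed with -0.87 (0.0134), and its dimmer probe had 0.13 (0.723) and was not called. A probe of Rpl23 had -0.73 (0.00339), and the 2 brightest of the 4 Rpl23 probes were not called. The probe at -0.73 had 8.91 and 8.87 with both drugs, 9.25 and 9.28 with RVX2135, 9.23 and 9.22 with VE-821, and 8.89 and 8.84 with DMSO. Rpl22 and this probe of Rpl23 thus stood higher with either drug alone than with both.

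**Figure D4:**
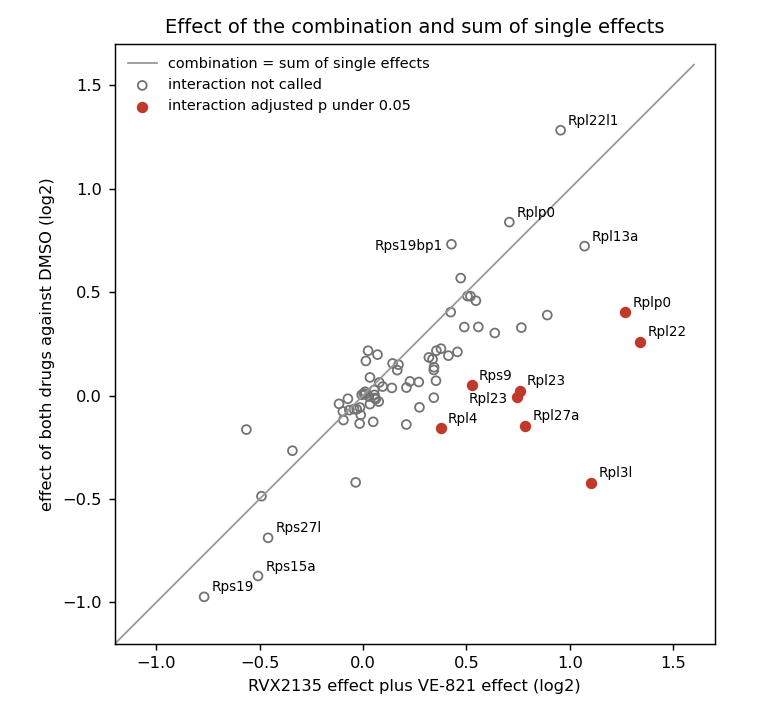
Log2 change with both drugs (vertical axis) against the sum of the log2 changes with RVX2135 and VE-821 (horizontal axis) for the 76 member probes; the diagonal marks equality and filled points passed the interaction test. The 8 called probes, among them Rpl22 and Rpl3l, lie below the diagonal, and Rpl22l1 lies near it.

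For Rpl22l1 the interaction of 0.33 was not called (95% interval -0.16 to 0.81, adjusted p = 0.301), which does not show that its rise equals the sum of the single-drug changes. Of the 13 genes with several member probes, 10 had a call on some probes and not on others in at least 1 comparison, and 0 had calls in opposite directions. Under median scaling, however, 1 probe fell and 1 rose with both drugs for Rps19 (-0.89 and 0.46) and for Rpl38 (-0.54 and 0.34), as they did for Rps19 under cyclic loess. Under both of these normalizations Rpl23 had opposite calls in the combination against each single drug, at -0.38 and 0.38 against RVX2135 and -0.32 and 0.40 against VE-821 under median scaling. Rps19, Rplp0, Rpl27a, Rpl31, Rps24, Rps9 and Rpl7l1 are among the cases given above. Rpl23 had 4 probes, of which 1 rose with RVX2135, 1 with VE-821 and 0 with both. Which transcripts these probes read was not analysed here.

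Other TOP messages, from a list of 23 genes, gave 31 filtered probes for 19 genes. With both drugs 14 of them rose and 4 fell, with RVX2135 10 rose and 3 fell, and with VE-821 9 rose and 3 fell, beside 58.5%, 28.1% and 21.2% of all filtered probes called in either direction. The elongation factor Eef2 rose on all 3 of its probes in all 3 comparisons, by 0.73 to 0.82 with both drugs, 0.51 to 0.59 with RVX2135 and 0.48 to 0.51 with VE-821. Its brightest probe had 11.36 and 11.27 with both drugs, 11.16 and 11.01 with RVX2135, 10.93 and 11.06 with VE-821, and 10.41 and 10.59 with DMSO. Tpt1, a small TOP-encoded protein tied to growth, rose by 1.12, 0.57 and 0.35 in the same order, the last of which was lost under the authors' values and median scaling. Falls with both drugs were those of Nap1l1 (2 probes, -0.75 and -1.86), Vim (-1.35) and Ipo5 (-0.86). Under median scaling the combination gave 16 rises and 4 falls.

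Fau encodes the small-subunit protein eS30 fused to a ubiquitin-like protein and so lies outside the naming rule. It had 13.13 and 13.09 with both drugs, 12.996 and 13.11 with RVX2135, 13.20 and 13.18 with VE-821, and 12.72 and 12.69 with DMSO. All 6 drug arrays were above both DMSO arrays, with rises of 0.40 (adjusted p = 0.0048), 0.35 (0.0256, lost under the authors' values) and 0.48 (0.00608). Rps27a, the fusion of a ribosomal protein with ubiquitin, had no probe among those analysed here.

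Regulators that set TOP translation moved in both directions: of 22 probes for 17 genes, 12 rose and 5 fell with both drugs, 4 and 2 with RVX2135, and 3 and 2 with VE-821. Their single-drug counts lie near the share of all filtered probes called (28.1% with RVX2135 and 21.2% with VE-821), and 58.5% of all were called with both drugs. Mtor, the kinase of mTORC1, fell by -1.11, -1.23 and -0.66, and Sesn2, which restrains mTORC1 when leucine is low, rose by 1.72, 0.73 and 1.25. These are examples, and others of the 17 genes moved too. Mlst8 stood higher with both drugs on its 3 probes, the brightest at 9.19 and 9.32 beside 8.58 and 8.66 with DMSO. Eif4e stood lower, at 5.87 and 6.10 beside 7.04 and 7.08. Dedicated chaperones, importers and late assembly factors of ribosomal proteins gave 36 probes for 25 genes, of which 9 rose and 8 fell with both drugs, 3 and 5 with RVX2135, and 5 and 2 with VE-821, to be read against the same shares. Tsr3, which modifies 18S ribosomal RNA, rose on 3 of 3 probes with both drugs by 0.98 to 1.10. Tsr2, the chaperone of Rps26, fell on 2 of 3 probes with both drugs, by -0.76 and -0.51. With both drugs these 2 probes lay near background, at 4.83 and 4.72, and at 4.98 and 5.26. The lowest detected signal on these arrays was 4.66 and 4.71. The third and brightest Tsr2 probe did not fall, with 6.82 and 6.94 with both drugs and 6.64 and 6.77 with DMSO.

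The rule also matched 8 probes that did not pass the filter. The nearest was the single probe of Rpl17, detected on 2 arrays of different groups, with a lowest detection p of 0.0138. The others were 2 probes of Rpl37, 1 of Rpsa, and those of Rpl6, Rplp2, Rpl39l and Rps23rg1, detected on at most 1 array. Just inside the filter were Rpl3l on 3 arrays, a probe of Rpl23 on 6, and Rps23 and Rpsa on 7 each.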

How the data were processed

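Per the labels, biotin-labelled total RNA of λ820 cells was hybridised to 8 Illumina bead arrays, and the submitters' processing notes name GenomeStudio (no version was named). The authors deposited, per array and probe, a linear intensity, which was negative for some probes (lowest -14.06) and so already background-subtracted, a detection p-value, and normalized intensities made by a method that no source used here gives. The files hold 0 value columns of no sample. The deposited unnormalized intensity was corrected by normexp from the detection p-values with an offset of 16, quantile-normalized and put on the log2 scale (neqc in limma 3.58.1, R 4.3.3); the authors' values served as an alternative. Probes with a detection p under 0.05 on both arrays of a group were tested, with 1 mean per group over all 8 arrays, lmFit and eBayes, and Benjamini-Hochberg adjustment within each comparison at 0.05. This was tested on simulated data. Symbols came from the platform annotation: 23978 probes had 1 symbol, 0 several and 1719 none, and no symbol of a member needed updating. Named were at most 8 called members per direction against DMSO (5 in the other comparisons) by size of change, stalk, 5S, Diamond-Blackfan and ubiquitin-fusion genes, paralogs with parents, and the brightest and dimmest members. The members and all lists were chosen with earlier results of these data known. Alternatives were other normalizations (authors' values, quantile without background correction, median scaling, cyclic loess), an offset of 50, no or a stricter detection filter, 1 probe per gene, a trended robust prior, the compared groups alone, replicate blocks and leaving out each array. Bead arrays give no read depth; the number of arrays limits the precision. The probe's sequence was not used here.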

Additional observations from a re-analysis of the deposited data

Results flagged for a closer look

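In 8 member probes the effect of VE-821 in the presence of RVX2135 differed from its effect without it, by limma's interaction test over all 11761 filtered probes, and in all 8 the combination fell short of the sum of the single effects. On the log2 scale the shortfall was -1.08 for Rpl22, -0.93 for the brighter Rpl27a probe and -0.87 for the brighter Rplp0 probe. The dimmer Rplp0 probe had an interaction of 0.13 and was not called. The shortfall was -0.73 and -0.75 for 2 of the 4 probes of Rpl23, -0.53 for a probe of Rpl4 and -0.47 for a probe of Rps9. The value of -1.53 for Rpl3l is no measured size: this probe passed the detection filter through the VE-821 arrays alone and was not above background in the combination and the RVX2135 groups, so the filter fixed the outcome and it counts as no support. The adjusted p was 0.00064 for Rpl22 and 0.0364 for the dimmer Rpl23 probe, which lay near background and was detected on 6 arrays. The calls of Rpl22, the brighter Rpl27a probe and the brighter of these 2 Rpl23 probes held under every alternative run. The 2 brightest of the 4 Rpl23 probes, at a mean log2 intensity of 13.89 and 13.79, were not called. Those of Rplp0, Rpl4, Rps9 and the dimmer Rpl23 probe were each lost under at least 4. Among the normalizations, the Rps9 call was lost under the authors' values, median scaling and cyclic loess, the Rpl4 call under median scaling, and that of the dimmer Rpl23 probe under the authors' values.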

How the results depend on the processing

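Of 2601 values of named members under an alternative, 2367 kept the call or its absence, 176 lost the call, 56 gained it and 2 reversed. Reversed means called in the direction opposite to the value given here. A change of sign without a call was counted as kept. An example is Rpl36al with both drugs against DMSO, at -0.14 here and 0.23 under median scaling. The reversals were Rpl3 (0.35, adjusted p = 0.0173) and Rpl39 (0.34, adjusted p = 0.0299), with both drugs against DMSO under median scaling. The number of arrays limits the precision, and for dim probes so does the signal over background. Where not stated, the cause of a change was not tested.

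Calls with both drugs against DMSO (20) became 48 under median scaling and 45 under cyclic loess, against VE-821 (10) 19 and 18. Of all filtered probes, 59.3% and 58.3% were then called against DMSO, and 47.5% and 47.3% against VE-821. A trended robust prior gave 26 calls for RVX2135 (12), 20 for VE-821 (10), 20 for the combination against RVX2135 (12), 21 against VE-821 and 15 for the interaction (8). In the same order, 32.3%, 25.5%, 51.1%, 51.0% and 29.6% of all filtered probes were called under that prior. An offset of 50 gave 16 for VE-821, and no detection filter, which tests more probes, gave 7 for RVX2135 and 6 for VE-821. Median scaling and cyclic loess gave median member changes of 0.25 and 0.17 for RVX2135, 0.17 and 0.17 for VE-821, and 0.37 and 0.28 for the combination against DMSO. They gave 0.12 and 0.12 against RVX2135, 0.22 and 0.12 against VE-821, and -0.0062 and -0.011 for the interaction. One probe per gene gave 0.0749 for VE-821. Leaving out 1 array gave 2 to 9 calls for RVX2135, 3 to 5 for VE-821 and 13 to 19 for the combination against DMSO, with fewer samples and the lone array assumed to vary like the other groups. It gave 8 to 13 against RVX2135, 7 to 12 against VE-821 and 4 to 8 for the interaction. Calls over all filtered probes also fell with each array left out. Member medians then ran from 0.0677 to 0.1121 for RVX2135, 0.067 to 0.1141 for VE-821 and 0.0235 to 0.0669 for the combination against DMSO. They ran from -0.0322 to -0.0153 against RVX2135, from -0.0346 to -0.0219 against VE-821, and from -0.1213 to -0.0847 for the interaction.

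With the replicate number as a block, calls were 10 for RVX2135, 10 for VE-821, 20 for the combination against DMSO, 13 against RVX2135, 11 against VE-821 and 8 for the interaction. The labels give same-numbered arrays a shared letter too, without saying what number or letter stands for. Deviations of same-numbered arrays correlated at -0.02 to 0.165, the highest between RVX2135 and DMSO, and not above 0.1 in every pair, so the arrays were not treated as paired.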
